A study of Mus musculus with 18 samples.

Results

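Csf1, Vgf and Trh are 3 genes that encode secreted signals, taken here from the 46078 mouse genes of a count table. They are cytokine and neuropeptide genes picked by symbol for their large differences between soft and stiff substrates in these same libraries, so their soft against stiff differences are given as descriptions, with no test. The cells were E14 mouse embryonic stem cells (mESCs), an established line labelled 129m wt, and all of them were held for 24 h in serum with LIF on fibronectin-coated StemBond hydrogels. These polyacrylamide gels carry 6-acrylamidohexanoic acid (AHA), whose amount sets how firmly the matrix protein is tethered. The 6 groups combined a soft (about 750 Pa) or stiff (about 160 kPa) gel with AHA at 16 mM (low), 48 mM (mid) or 80 mM (high), and each had 3 libraries of total RNA. They share 1 cell line, 1 genotype and 1 medium, and no sample off the gels is used here.

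Csf1 encodes colony stimulating factor 1, a cytokine that signals through the receptor tyrosine kinase CSF1R and is best known for keeping macrophages alive. It is made as secreted and as membrane-bound forms, the latter cut free by the protease ADAM17. Vgf and Trh encode precursors that are cut after basic residues, often in pairs, into short peptides, mainly in neurons and endocrine cells. VGF gives several peptides, among them the one that begins with the residues TLQP and binds C3AR1 and C1QBP. TRH, thyrotropin releasing hormone, is a tripeptide that acts on the pituitary receptor TRHR.

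The precursor layout can be read in the genes themselves. Trh (ENSMUSG00000005892, chr6:92242061-92244650, minus strand, build GRCm38) has 3 exons and a coding sequence of 768 bases. That sequence holds 5 copies of the codons for Gln-His-Pro-Gly, each with codons for 2 basic residues on both sides, and all 5 lie in exon 3. They are shown because each copy is the source of 1 hormone molecule, with the Gln-His-Pro-Gly codons in capitals and the basic codons in lower case (GENCODE M21 annotation).
Trh copy 1, chr6:92243088-92243111, minus strand, exon 3: aaacgcCAGCATCCGGGCaaaagg
Trh copy 2, chr6:92242992-92243015, minus strand, exon 3: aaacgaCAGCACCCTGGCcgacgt
Trh copy 3, chr6:92242857-92242880, minus strand, exon 3: aagcggCAGCACCCTGGCaggcga
Trh copy 4, chr6:92242803-92242826, minus strand, exon 3: aagaggCAGCATCCAGGCcggagg
Trh copy 5, chr6:92242710-92242733, minus strand, exon 3: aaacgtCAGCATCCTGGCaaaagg

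Vgf (ENSMUSG00000037428, chr5:137026392-137033351, plus strand) has a coding sequence of 1851 bases in its transcript Vgf-201. The 63 bases from the first codon of the TLQP peptide are shown because its known receptors are described further on, with the codons of those 4 residues in capitals. Where the peptide ends is not marked.
Vgf, start of the TLQP peptide, chr5:137032651-137032713, plus strand, exon 2: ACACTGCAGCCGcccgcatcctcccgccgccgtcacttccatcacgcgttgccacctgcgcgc

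Csf1 (ENSMUSG00000014599, chr3:107741048-107760469, minus strand) has 6 coding transcripts in the annotation, with coding sequences from 489 to 1656 bases. The count table gives 1 value per gene, so the secreted and membrane-bound forms were not separated. No exon of the 3 genes overlaps an exon of another annotated gene on either strand.

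The 250 bases before the start of Csf1 and of Trh are shown because the RNAs of these genes differed in opposite directions between the stiffnesses. They come from RefSeq (GRCm38.p6), where 2 of the 3 genes matched an entry, and are written along the gene's own strand. Capitals mark matches to the Sp1 motif GGGCGG and to the short cAMP site TGACG, which appears as CGTCA on the other strand.
Csf1 promoter, chr3:107760470-107760719, minus strand: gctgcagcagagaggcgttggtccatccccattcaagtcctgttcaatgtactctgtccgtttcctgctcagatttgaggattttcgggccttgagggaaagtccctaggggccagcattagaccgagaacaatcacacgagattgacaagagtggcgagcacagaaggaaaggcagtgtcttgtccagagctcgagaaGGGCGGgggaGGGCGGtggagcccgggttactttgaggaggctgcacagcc
Trh promoter, chr6:92244651-92244900, minus strand: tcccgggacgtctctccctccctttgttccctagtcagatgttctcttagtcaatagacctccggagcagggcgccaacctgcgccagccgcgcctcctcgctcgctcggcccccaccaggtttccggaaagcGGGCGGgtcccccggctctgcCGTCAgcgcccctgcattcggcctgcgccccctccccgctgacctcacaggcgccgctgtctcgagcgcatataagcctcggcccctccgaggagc

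The Csf1 stretch held GGGCGG at 51 to 46 and at 41 to 36 bases before the start, and the Trh stretch held it at 117 to 112 bases before. Of 32851 RefSeq promoters of 300 bases (250 before to 50 after the start), 35.7% held this motif on either strand. Trh also held a short cAMP site at 96 to 92 bases before the start, as did 20.8% of promoters. The full cAMP response element TGACGTCA, which contains the short site, was in neither window and in 1.79% of all promoters. Nor were the AP-1 motif TGACTCA (5.20% of promoters), the TEAD motif GGAATG (14.7%), the E-box CACGTG (7.15%), TATAAA (13.6%) or a CArG box (1.63%). These matches are descriptions of letters, not of binding.

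Gene counts per library ranged from 5850621 to 9290261. ERCC spike-in RNAs took 0.607 to 0.725% of counts in 17 libraries and 1.37% in replicate 1 of soft, high AHA. That library was left out of all means and tests, as the study set aside libraries with a high ERCC share, which left 8 soft and 9 stiff libraries. All 12 stem cell markers examined, such as Pou5f1, were at or above 10 CPM (CPM, a gene's counts relative to the TMM-scaled library size of the protein-coding genes that were tested). The labels do not say that libraries of a group came from separate cultures, so the SDs and p-values below measure the spread between libraries, which may be technical. In bulk RNA, fewer cells that express a gene and less of its RNA per cell cannot be told apart.

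Csf1 RNA was lower on soft than on stiff gels. On soft gels it was at 22.1, 24.3 and 25.4 CPM at low AHA, at 26.7, 25.2 and 26.3 CPM at mid AHA, and at 24.9 and 30.7 CPM at high AHA. On stiff gels it was at 45.2, 41.6 and 34.7 CPM at low AHA, at 42.1, 40.2 and 42.9 CPM at mid AHA, and at 45.6, 38.1 and 47.5 CPM at high AHA. Every soft library was below every stiff library, with the nearest pair being a soft, high AHA library at 30.7 CPM and a stiff, low AHA library at 34.7 CPM. The soft mean was 25.7 ± 2.47 CPM (SD, n = 8), and the stiff mean was 42.0 ± 3.99 CPM (SD, n = 9). These values rested on 110 to 169 counts in a soft library and 158 to 297 in a stiff one. The fitted soft minus stiff difference, averaged over AHA, was -0.70 ± 0.073 (log2, SE), or 1.63-fold higher on stiff gels.

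Vgf RNA was also lower on soft gels, by nearly the same fold. On soft gels it was at 20.7, 26.8 and 25.8 CPM at low AHA, at 19.6, 28.1 and 27.6 CPM at mid AHA, and at 23.5 and 24.8 CPM at high AHA. On stiff gels it was at 39.7, 44.8 and 41.2 CPM at low AHA, at 37.4, 37.0 and 41.7 CPM at mid AHA, and at 40.2, 36.9 and 43.1 CPM at high AHA. The highest soft library (28.1 CPM) was well under the lowest stiff library (36.9 CPM). Means were 24.6 ± 3.14 CPM (SD, n = 8) and 40.2 ± 2.81 CPM (SD, n = 9). The average difference was -0.71 ± 0.076 (log2, SE), or 1.64-fold higher on stiff gels.

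Trh RNA went the other way and was higher on soft gels. On soft gels it was at 74.4, 60.7 and 60.3 CPM at low AHA, at 72.1, 72.8 and 61.4 CPM at mid AHA, and at 61.5 and 73.5 CPM at high AHA. On stiff gels it was at 48.3, 43.9 and 40.5 CPM at low AHA, at 47.7, 46.1 and 45.3 CPM at mid AHA, and at 44.0, 48.9 and 44.9 CPM at high AHA. The soft libraries were also more spread out, reaching from 60.3 to 74.4 CPM, while the stiff ones lay between 40.5 and 48.9 CPM. Means were 67.1 ± 6.57 CPM (SD, n = 8) and 45.5 ± 2.62 CPM (SD, n = 9). The average difference was 0.56 ± 0.058 (log2, SE), or 1.47-fold higher on soft gels.

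**Figure D1:**
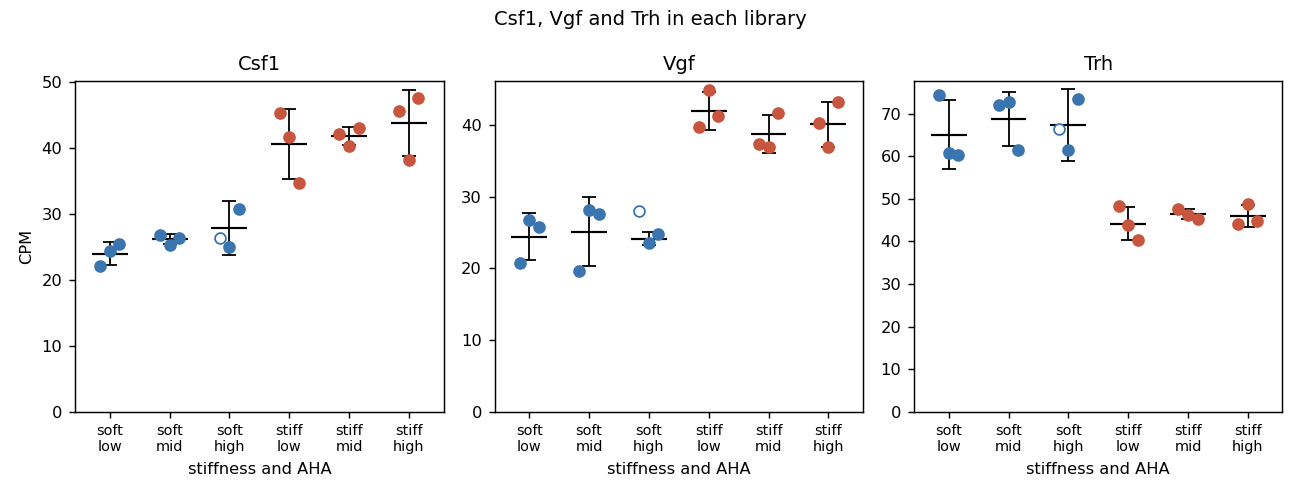
CPM of Csf1, Vgf and Trh (vertical axes, from 0) in each library of the 6 groups (horizontal axes). Blue points are soft and red points stiff libraries, the open point is the soft, high AHA library left out of the means, and black lines show the group mean ± SD. Soft and stiff points do not overlap in any of the 3 panels, with soft below stiff for Csf1 and Vgf and above for Trh.

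For each of the 3 genes, then, soft and stiff libraries did not overlap. Of all 13438 protein-coding genes tested, 170 (1.27%) were separated in this way, and nothing is read from the comparison because the 3 genes were chosen on this difference. The library left out was not used for the fitted differences, and its values lay within the range of the other soft libraries for all 3 genes: 26.2 CPM for Csf1, 28.0 CPM for Vgf and 66.4 CPM for Trh. Beside the values of the 3 genes, lists of cell type markers were compared in the average soft minus stiff contrast, in which 8.59% of all genes were called. The summed level of 8 fibroblast or feeder markers, mostly Col1a1 and Col1a2, ranged from 119 to 200 CPM in soft and from 173 to 244 CPM in stiff libraries, with 1 of 6 tested markers called lower on soft gels. The 10 neuron and neuroendocrine markers, led by Stmn2 and Tubb3, summed to 318 to 355 CPM in soft and 330 to 374 CPM in stiff libraries, with 1 of 10 tested called lower on soft gels. The 8 trophoblast markers summed to 199 to 230 and 205 to 226 CPM (1 higher and 2 lower of 6 tested), and the 8 primitive endoderm markers to 36.8 to 51.4 and 37.6 to 49.3 CPM (of 7 tested, 0 called and 0 at an unadjusted p under 0.05 by edgeR, 0 called by DESeq2). The 12 stem cell markers summed to 3153 to 3374 CPM in soft and 2888 to 3041 CPM in stiff libraries, with 10 of 12 tested called higher and 1 lower on soft gels. The 8 macrophage markers summed to 16.0 to 23.6 CPM in soft and 14.9 to 29.4 CPM in stiff libraries (of 3 tested, 0 called and 0 at an unadjusted p under 0.05 by edgeR, 0 called by DESeq2). Cd68 had 49 to 121 counts in a library, Itgam 4 to 14 and Csf1r 2 to 16. Ptprc, Cx3cr1 and Lyz2 had at most 7, 5 and 3 counts in a library, and Adgre1 and Tyrobp had under 3 in each. The part of other cell types in the values of Csf1, Vgf and Trh was not tested.

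The stiffness difference was of similar size at each AHA concentration. For Csf1 it was -0.76 ± 0.125 at low, -0.68 ± 0.121 at mid and -0.67 ± 0.135 at high AHA (log2, SE). For Vgf it was -0.77 ± 0.126, -0.63 ± 0.125 and -0.74 ± 0.142. For Trh it was 0.55 ± 0.0982, 0.57 ± 0.0960 and 0.55 ± 0.106. Within a gene, the 95% intervals at the 3 concentrations overlapped, and no test of their difference was made. The high AHA values rest on 2 soft libraries, and the Csf1 difference there was -0.53 without soft, high AHA replicate 2 and -0.82 without replicate 3. Trh at high AHA was 0.43 without replicate 3.

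**Figure D2:**
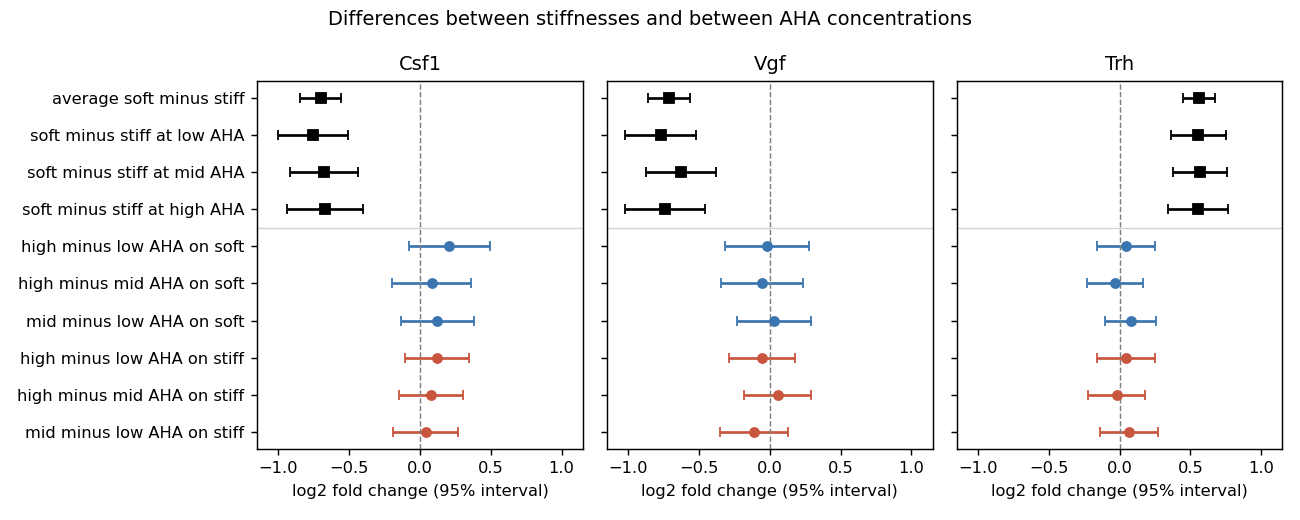
Fitted log2 fold change with its 95% interval (horizontal axes) for each contrast (vertical axis) of Csf1, Vgf and Trh. Black squares are soft minus stiff differences, and circles are AHA contrasts on soft (blue) or stiff (red) gels. The squares lie away from 0 in the direction the genes were chosen for, and every circle's interval includes 0.

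AHA contrasts within a stiffness were not used in choosing the genes and were tested. Csf1 had its highest group mean at high AHA on both gels, but on soft gels this rests on 1 of 2 libraries: high minus mid AHA turned from 0.08 to -0.069 without soft, high AHA replicate 3. On soft gels it was at 23.9 ± 1.71 CPM at low (n = 3), 26.1 ± 0.768 CPM at mid (n = 3) and 27.8 ± 4.11 CPM at high AHA (n = 2, SDs), and on stiff gels at 40.5 ± 5.36, 41.7 ± 1.37 and 43.7 ± 5.01 CPM (SD, n = 3 each). High minus low AHA on soft gels was 0.21 ± 0.144 (log2, SE; edgeR quasi-likelihood test, adjusted p = 0.735), with a 95% interval from -0.08 to 0.49. It was 0.35 without soft, high AHA replicate 2 and 0.057 without replicate 3. On stiff gels the same contrast was 0.12 ± 0.115 (edgeR, adjusted p = 0.935), with an interval from -0.11 to 0.35. Without single libraries it ranged from 0.016 (stiff, low AHA replicate 3) to 0.22 (stiff, low AHA replicate 1), and it was 0.058 without stiff, high AHA replicate 3 and 0.20 without stiff, high AHA replicate 2. Neither contrast passed the threshold of 0.05, and a difference of up to 0.49 on soft gels is within the interval.

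For Vgf and Trh the group means of 1 stiffness lay close together. Group means of Vgf on soft gels ran from 24.1 CPM at high to 25.1 CPM at mid AHA, and on stiff gels from 38.7 CPM at mid to 41.9 CPM at low AHA. High minus low AHA for Vgf was -0.02 on soft gels (95% interval -0.32 to 0.27) and -0.05 on stiff gels (-0.29 to 0.18). Group means of Trh ran from 65.1 CPM at low to 68.8 CPM at mid AHA on soft gels, and from 44.2 CPM at low to 46.4 CPM at mid AHA on stiff gels. For Trh the high minus low contrast was 0.05 on both gels, with an interval of -0.16 to 0.25 on each. With ERCC scaling the soft gel contrast was 0.17 for Trh, 0.32 for Csf1 and 0.094 for Vgf, and none of these was called. In the order of the 6 group means, library values of neighbours of the same stiffness overlapped in range for each gene, and those of soft and stiff groups did not.

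In all, edgeR's quasi-likelihood test was applied to 18 AHA contrasts of the 3 genes and called 0, with adjusted p-values from 0.735 to 0.996. At an unadjusted p under 0.05 the count was 0 of 18, and DESeq2 also called 0. Over all 13438 tested genes the share called was 0.253% for high minus low, 0.067% for high minus mid and 0% for mid minus low AHA on soft gels. On stiff gels it was 0.00744%, 0.00744% and 0%. A count of 0 among the 3 genes is thus near the background.

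Spread between libraries of a group was set beside the error of counting. The coefficient of variation within a group was 2.95 to 14.8% for Csf1, where counting error alone gives 6.44 to 8.90%. For Vgf it was 3.92 to 13.4% in 5 groups, against 6.75 to 8.80% from counting, and for Trh 2.61 to 12.6% against 4.92 to 6.58%. Relative to its mean, the widest group was Vgf on soft, mid AHA gels (25.1 ± 4.77 CPM, SD, n = 3), where 1 library was at 19.6 CPM and the others at 28.1 and 27.6 CPM. The fit across all genes gave a biological coefficient of variation of 7.08% for Csf1, 7.29% for Vgf and 5.91% for Trh, beside 5.35% in common.

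Per kilobase of exon, Trh was the most abundant of the 3 genes. Exon length was that of the merged exons of all annotated transcripts of a gene, so the scale can lower genes with several transcripts. It was 5281 bases for Csf1, whose longest coding transcript has 4176, and 1384 bases for Trh, the length of its transcript. Trh was at 40.2 CPM per kb over all 17 libraries, above Vgf at 11.1 and Csf1 at 6.50 CPM per kb. On this scale Trh was at the 91.0th percentile of tested genes, Vgf at the 66.6th and Csf1 at the 53.7th. Within a library the ratio of Vgf to Csf1 (CPM per kb) was 1.71 ± 0.242 in the soft libraries (SD, n = 8) and 1.71 ± 0.186 in the stiff ones (SD, n = 9). The ratio of Csf1 to Trh was 0.101 ± 0.0119 on soft and 0.242 ± 0.0230 on stiff gels. The ratio of Vgf to Trh was 0.173 ± 0.0326 on soft and 0.414 ± 0.0473 on stiff gels. The first ratio was thus alike on both gels, while soft and stiff libraries did not overlap in either of the others. These ratios need no scaling between libraries, although they contain the difference the genes were chosen for.

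**Figure D3:**
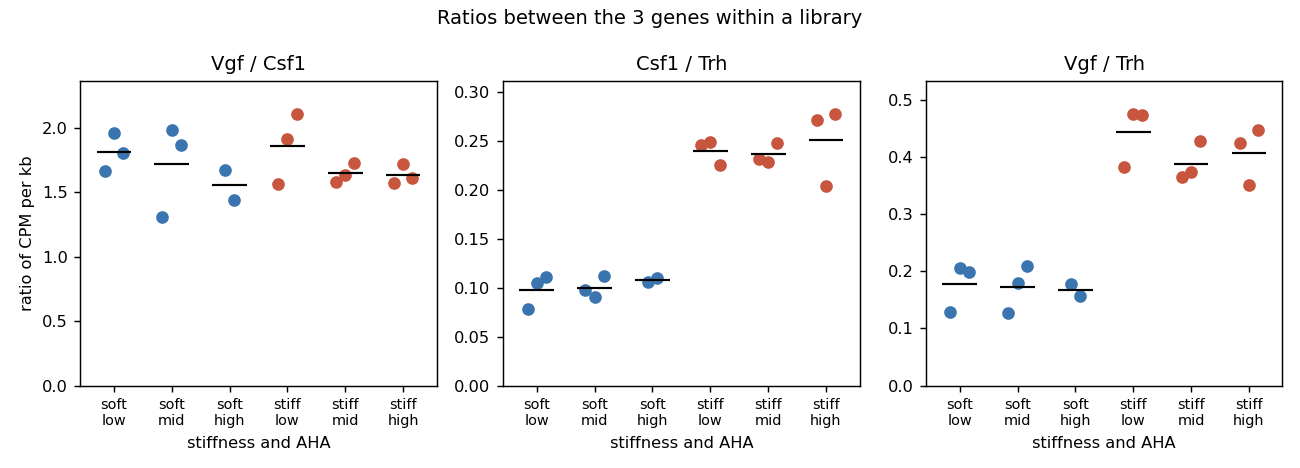
Ratios of CPM per kb between pairs of the 3 genes within a library (vertical axes, from 0) in the 6 groups (horizontal axes), with soft libraries in blue, stiff in red and group means as black lines. Vgf over Csf1 overlaps between stiffnesses (1.71 on average on both), while Csf1 over Trh and Vgf over Trh lie higher in every stiff library than in any soft one.

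Over the 17 libraries, Pearson's r of log2 CPM was 0.90 between Csf1 and Vgf, -0.85 between Csf1 and Trh and -0.93 between Vgf and Trh. Once each library was expressed as a deviation from its group mean, r was 0.29, 0.12 and -0.50. The libraries share 6 conditions, so the first set of values mostly restates the stiffness difference. In the deviations, the lowest Vgf values belonged to soft, mid AHA replicate 1 (-0.33 log2) and soft, low AHA replicate 1 (-0.23). Trh was above its group mean in both of these libraries, by 0.07 and 0.20.

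Genes whose levels followed the 3 genes most closely were taken from 9224 tested genes with a mean of at least 10 CPM. For Csf1 they were Itga3, an integrin subunit (r = 0.95), Bcam, a laminin receptor (0.95), the tubulin Tubb6 (0.93), Ddah1 (0.93) and the keratin Krt8 (0.93). For Vgf they were the actin crosslinker Flnc (0.95), Itga3 (0.94), the matrix protein thrombospondin Thbs1 (0.93), Palm3 (0.93) and Peg10 (0.92). For Trh they were Arid5b (0.92), the Wnt inhibitor Sfrp1 (0.91), the histone demethylase Kdm5b (0.91), Nanog, a pluripotency factor (0.91), and Igf2bp2 (0.91). Itga3 stood in the lists of both Csf1 and Vgf. The most opposed genes were Usp48, Usp28 and Wdr76 for Csf1 (-0.91 each), and Nanog (-0.94), Trh and Igf2bp2 (-0.93 each) for Vgf. For Trh they were the actin regulator Wdr1 (-0.95), Itga3 and Thbs1 (-0.94 each). These are descriptions over 17 libraries of the same 6 groups and contain the stiffness difference the 3 genes were chosen for. In deviations from group means, r was lower for the 5 most similar genes: 0.15 (Krt8) to 0.60 (Tubb6) for Csf1, 0.34 (Itga3) to 0.71 (Thbs1) for Vgf and 0.28 (Igf2bp2) to 0.60 (Arid5b) for Trh. For the most opposed genes it was -0.47 to -0.33 for Csf1, -0.63 to -0.50 for Vgf and -0.76 to -0.42 for Trh. Over all 9224 genes, the 5th and 95th percentiles of this r were -0.49 and 0.49 for Csf1. They were -0.49 and 0.50 for Vgf and -0.49 and 0.49 for Trh. Several of the values above lie within these percentiles, and the genes were picked on an r that contains these deviations. Ranked by Spearman's rho, 0 of the 5 genes for Csf1, 1 for Vgf and 0 for Trh stayed in the top 5.

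The other genes of the 3 signalling routes were described next, from 8 lists. Over all genes, 8.59% were called in the average soft minus stiff contrast, 3.77% higher and 4.82% lower on soft gels. The receptor of CSF1 was scarcely expressed: Csf1r was at 1.65 ± 0.639 CPM in soft libraries (SD, n = 8) and 1.39 ± 0.593 CPM in stiff ones (SD, n = 9), between 2 and 16 counts in a library. Its other ligand, Il34, was at 1.56 ± 0.869 and 1.68 ± 0.864 CPM. Csf1 itself was thus at far higher levels per kb than either (4.87 and 7.95 CPM per kb on soft and stiff gels, against 0.285 and 0.241 for Csf1r and 0.798 and 0.855 for Il34). Adam17 was expressed at 62.0 ± 4.12 CPM on soft and 70.0 ± 3.29 CPM on stiff gels, lower on soft by -0.17 ± 0.0524 (log2, SE; edgeR, adjusted p = 0.0244). This call was lost in 8 of 23 alternatives (adjusted p up to 0.378 with edgeR), of which 6 left out a single library.

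Of 26 CSF1 signalling genes tested, 3 were called lower and 1 higher on soft gels, with a median log2 fold change of -0.03 beside 0.00105 over all genes. The lower ones were the kinases Src (-0.21 ± 0.0521, edgeR adjusted p = 0.00179) and Fyn (-0.21 ± 0.0583, edgeR adjusted p = 0.00999), and Adam17. The higher one was the inositol phosphatase Inpp5d (0.14 ± 0.0471, edgeR adjusted p = 0.0341), whose call was lost in 10 of 23 alternatives (edgeR or DESeq2, adjusted p up to 0.131). Src was called in all but ERCC scaling, and Fyn in all but ERCC scaling and the fits without stiff, mid AHA replicate 1 or stiff, high AHA replicate 3. These are signalling genes of general use in the cell. The median was 0.039 with ERCC scaling, where that of all genes was 0.07, and -0.064 to 0.014 without single libraries. The count of 4 called was 1 with ERCC scaling, and 2 without stiff, mid AHA replicate 1 or without stiff, high AHA replicate 3.

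Few other secreted factors had enough counts to be tested. Of 78 listed cytokine and chemokine genes, 25 passed the filter on low counts, with 9 fitted differences above 0 and 16 below. The median among those was -0.18, which is the value of Il34 (SE 0.334, edgeR adjusted p = 0.835), a gene with few counts. Cxcl16, a chemokine made as a membrane-bound form, was lower on soft gels at 16.8 ± 3.29 against 23.9 ± 3.53 CPM (-0.50 ± 0.0963, edgeR adjusted p = 4.03e-05). The growth factor midkine, Mdk, was lower by -0.13 ± 0.0428 (edgeR, adjusted p = 0.0379), a call lost in 15 of 23 alternatives, of which 11 left out a single library. Spp1, osteopontin, was higher on soft gels at 187 ± 10.4 against 162 ± 5.77 CPM (0.21 ± 0.0340, edgeR adjusted p = 7.01e-07), and its soft and stiff libraries did not overlap. Cxcl16 and Spp1 were called under all 23 alternatives.

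Of 77 neuropeptide and peptide hormone precursors other than Vgf and Trh, 20 passed the filter. EdgeR's quasi-likelihood test called 0 of them, with 3 at an unadjusted p under 0.05, and DESeq2 also called 0. The count was 1 with all 18 libraries and without soft, low AHA replicate 2, soft, high AHA replicate 2 or stiff, high AHA replicate 1. The median was -0.10. Just outside the choice of the 3 genes stood ligands with large fitted differences on few counts: Grp at 0.914 CPM on soft and 1.67 CPM on stiff gels (-1.03 ± 0.387), Cxcl10 at 0.981 and 1.52 CPM (-0.73 ± 0.380), and Il17b at 1.01 and 1.39 CPM (-0.63 ± 0.397). The fitted differences of Grp and Cxcl10 exceed in size those of all 3 chosen genes, and that of Il17b exceeds Trh's. None of these was called (edgeR, adjusted p = 0.0832, 0.268 and 0.396). Over both ligand lists, 45 of 155 genes were tested and 3 called.

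**Figure D4:**
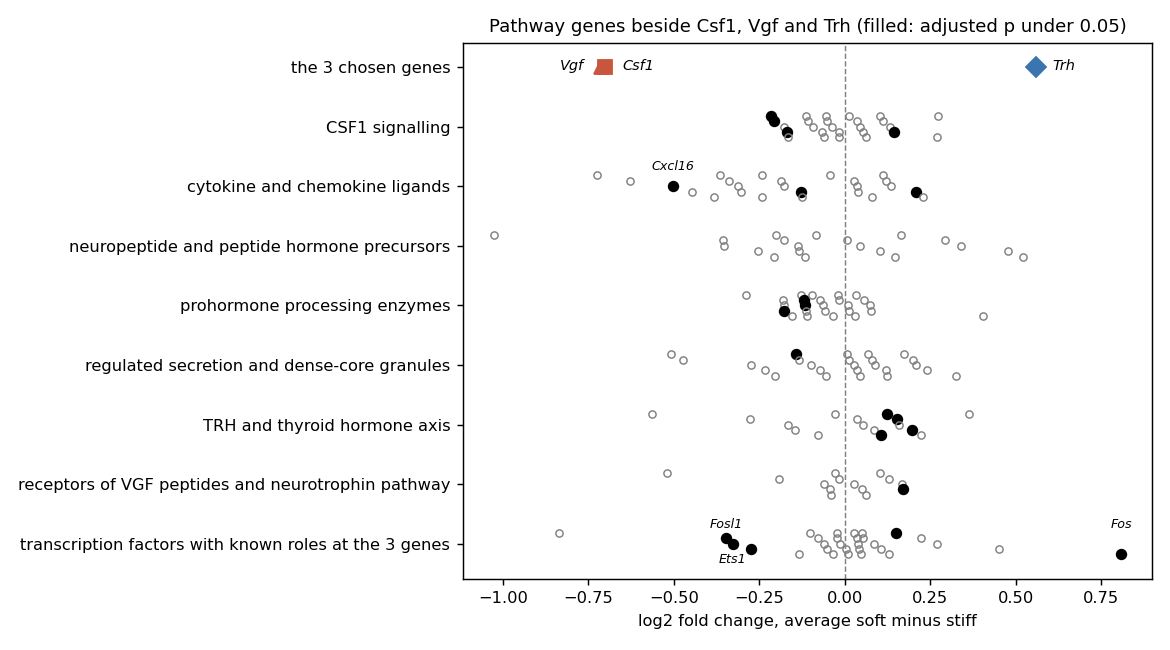
Log2 fold change, average soft minus stiff (horizontal axis), of the tested genes of 8 lists (vertical axis), beside the 3 chosen genes in the top line. Filled points passed an adjusted p of 0.05 in edgeR's quasi-likelihood test and open points did not; called genes beyond 0.3 in either direction are named. Csf1 (-0.70) and Vgf (-0.71) lie to the left and Trh (0.56) to the right of most list genes, and Fos (0.81) is the called gene with the highest value.

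Enzymes that cut and finish peptide hormones were present in part. The neuroendocrine convertases Pcsk1 and Pcsk2 were low, at 1.60 ± 1.02 and 1.16 ± 0.816 CPM on soft and 1.67 ± 0.562 and 1.17 ± 0.570 CPM on stiff gels. Furin, the convertase of the general secretory route, was at 70.0 ± 5.96 CPM on soft and 75.5 ± 5.20 CPM on stiff gels (edgeR, adjusted p = 0.261). Cpe, which trims the basic residues, was at 13.4 ± 2.00 and 13.4 ± 2.55 CPM. Pam, which amidates the peptide end, was at 23.3 ± 3.07 and 23.1 ± 2.80 CPM. Qpct, which forms the pyroglutamate of TRH, was at 1.77 ± 0.431 and 1.80 ± 0.821 CPM. Per kb, Trh (48.5 CPM per kb on soft gels) was well above Furin (7.63), Cpe (5.15), Pam (1.96) and Qpct (0.696).

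Of 25 processing enzymes tested, 3 were called lower and 0 higher on soft gels, with a median of -0.06. They were the carboxypeptidase Cpd (-0.18 ± 0.0509, edgeR adjusted p = 0.0125), the protease cathepsin L, Ctsl (-0.12 ± 0.0363, edgeR adjusted p = 0.0225), and the peptide-degrading enzyme neprilysin, Mme (-0.12 ± 0.0396, edgeR adjusted p = 0.0435). The count of 3 was 1 with DESeq2 and 0 with ERCC scaling, under which the median was 0.00054. Single calls were lost in 3 alternatives for Cpd, 7 for Ctsl and 15 for Mme. The count was also 1 without soft, low AHA replicate 2, soft, mid AHA replicate 2, soft, high AHA replicate 2, stiff, low AHA replicate 1 or stiff, mid AHA replicate 2. Among 25 dense-core granule and secretion genes, 1 was called, the small GTPase Rab2a, lower on soft gels by -0.14 ± 0.0457 (edgeR, adjusted p = 0.0289). Its own call was lost in 10 of 23 alternatives, of which 8 left out a single library. The count of 1 was 0 with DESeq2 and with ERCC scaling, and 2 without stiff, high AHA replicate 2. It was also 0 without soft, low AHA replicate 2 or 3, soft, mid AHA replicate 1, soft, high AHA replicate 3, stiff, low AHA replicate 1, stiff, mid AHA replicate 3 or stiff, high AHA replicate 1.

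Receptors for TRH were at or near 0. Trhr had 7 counts in all and 0 in 15 of 17 libraries, and Trhr2 had 4 counts in all and 0 in 16. Trhde, the enzyme that degrades TRH outside cells, had 7 counts in all. A count of 0 allows up to 3 counts in a library, or 0.460 to 0.739 CPM. Pgpep1, an enzyme that removes pyroglutamate inside cells, was at 15.4 ± 2.35 CPM on soft and 15.4 ± 1.38 CPM on stiff gels. Of 16 tested genes of the TRH and thyroid hormone axis, 4 were called higher and 0 lower on soft gels, with a median of 0.07 that turned to -0.048 when coding genes with at least 2 counts were all kept. They included Ncoa1 (0.20 ± 0.0556, edgeR adjusted p = 0.0104), Ncor1 (0.11 ± 0.0225, edgeR adjusted p = 0.000275) and Klf9 (0.12 ± 0.0365, edgeR adjusted p = 0.0164). Ncoa1 and Ncor1 are coregulators of many nuclear receptors, and Klf9 is a transcription factor that responds to thyroid hormone among other signals. Ncor1 was called in all 23 alternatives, Ncoa1 in all but the fit without soft, high AHA replicate 2, and Klf9 in all but those without soft, low AHA replicate 1 or soft, high AHA replicate 3.

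Of the receptors for the VGF peptide, C3ar1 had 48 counts in all, with 0 in 4 libraries and at most 10 in 1, and was not tested. C1qbp, a mainly mitochondrial protein, was abundant at 380 ± 14.7 CPM on soft and 388 ± 17.8 CPM on stiff gels (edgeR, adjusted p = 0.622). Of 14 tested genes of VGF receptors and the neurotrophin pathway, 1 was called, Kidins220, a scaffold of neurotrophin receptors (0.17 ± 0.0522, edgeR adjusted p = 0.0208). That call was lost in 5 of 23 alternatives, all of which left out a single library: soft, low AHA replicate 1, soft, mid AHA replicate 2, soft, high AHA replicate 3, stiff, mid AHA replicate 3 or stiff, high AHA replicate 3.

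**Figure D5:**
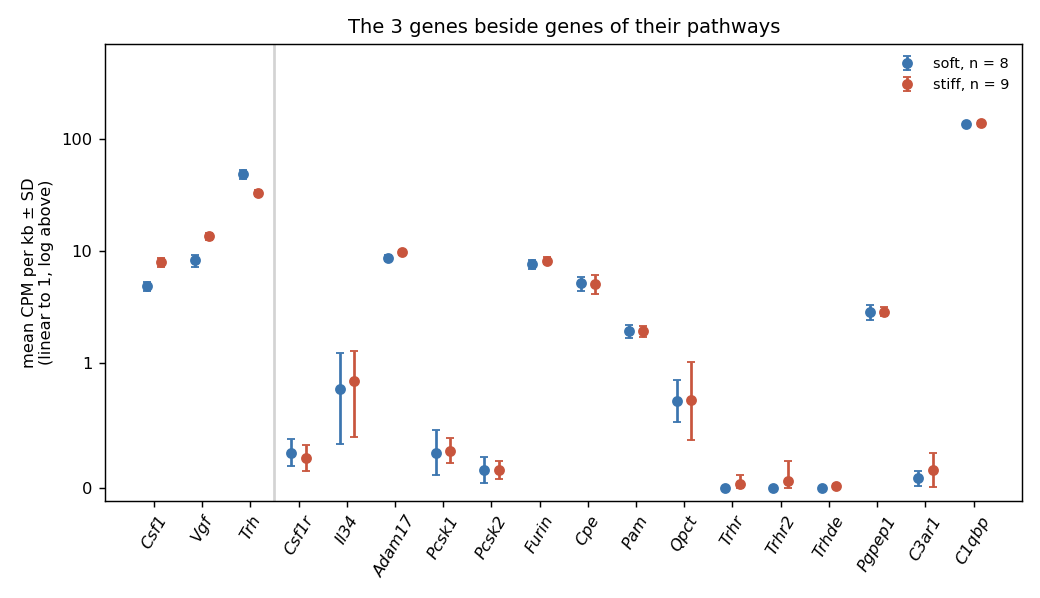
Mean CPM per kb ± SD (vertical axis, linear from 0 to 1 and logarithmic above; bars stop at 0) on soft (blue, n = 8) and stiff (red, n = 9) gels for the 3 genes and for receptors, a further CSF1R ligand (Il34) and processing or degrading enzymes. Trh is at 48.5 on soft and 32.9 on stiff gels, while Trhr, Trhr2 and Trhde lie at or near 0.

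Among 30 tested transcription factors with known roles at the 3 genes, 2 were called higher and 3 lower on soft gels, with a median of 0.02. Fos, an immediate early gene, was higher at 12.9 ± 0.742 CPM (SD, n = 8) in soft against 7.41 ± 3.28 CPM (SD, n = 9) in stiff libraries (0.81 ± 0.137, edgeR adjusted p = 1.98e-06), on 16 to 85 counts a library. Soft and stiff libraries overlapped for Fos, and the stiff ones were the more spread out. The Fos relatives Fosl1 (-0.35 ± 0.116, edgeR adjusted p = 0.0488) and Fosl2 (-0.27 ± 0.0576, edgeR adjusted p = 0.000200) were lower, as was Ets1 (-0.33 ± 0.0780, edgeR adjusted p = 0.00150). Rest, the repressor of neuronal genes, was higher (852 ± 32.4 against 763 ± 25.8 CPM, 0.15 ± 0.0224, edgeR adjusted p = 3.76e-08). The calls of Fos, Ets1 and Rest were kept in all 23 alternatives, that of Fosl2 in all but ERCC scaling, and that of Fosl1 was lost in 15, of which 12 left out a single library. The count of 5 called was 3 with ERCC scaling.

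Scaling bears on these small differences. With TMM, 43.9% of all called genes were higher on soft gels (506 against 648), and with ERCC scaling 79.2% were (736 against 193). The average differences of Csf1, Vgf and Trh kept their directions under ERCC scaling, at -0.64, -0.65 and 0.62. Between AHA concentrations, 1 of 176 tested genes of the 8 lists was called for high minus low AHA on soft gels, Ctsl (0.27, edgeR adjusted p = 0.0457), with 21 at an unadjusted p under 0.05. Over all genes the share called in this contrast was 0.253%. DESeq2 called 0 there. The count of list genes was also 0 with ERCC scaling, and without soft, low AHA replicate 1 or 2, soft, mid AHA replicate 1, soft, high AHA replicate 2 or stiff, high AHA replicate 3. It was 2 with all 18 libraries and without soft, high AHA replicate 3. On stiff gels edgeR called 0 of 176, with 10 at an unadjusted p under 0.05, and DESeq2 called 0. The share over all genes on stiff gels was 0.00744%. Counts of 1 and 0 among 176 genes are near these shares.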

How the data were processed

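Total RNA was extracted from mESCs on the 6 substrates. For its sequencing the paper names an in-house facility and several library kits, among them a low-input kit for mammalian RNA. Per the submitters' processing notes, reads were trimmed with Trim Galore 0.4.4, aligned with GSNAP to mm10 and assigned to genes with HTSeq. The authors deposited raw counts, and use of strand was not given in the sources used here. HTSeq summary lines (61.5 to 64.0% of column sums) were left out.

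GENCODE M21 named 45143 of 46078 genes. Groups came from the labels, with replicates numbered in sample order. The library with the highest ERCC share was left out. Protein-coding genes were filtered with filterByExpr at a minimum count of 10, TMM-scaled and fitted with edgeR 4.0.16 in R 4.3.3 (robust quasi-likelihood, 1 coefficient per group). P-values were adjusted by Benjamini-Hochberg over 13438 genes within a contrast, and genes under 0.05 were called. Log2 CPM used a prior count of 2. The fit was tested on simulated data.

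The 3 genes and the 8 lists were chosen with earlier results of these data known. Named genes were the 3 genes, list genes called in the average contrast (up to 6 per list), fixed receptors and enzymes, the 5 most and 3 least similar genes by Pearson's r, and 3 ligands of largest fold change outside the choice, and 1 called list gene is not reported here. Alternatives were RLE and ERCC scaling, a looser count filter, DESeq2 1.42.0, all 18 libraries, all biotypes, fits on the groups compared, and leaving out each library. Similarity was also ranked by Spearman's rho and with a prior count of 0.5. Intervals were 95%, from the fitted SE.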

Additional observations from a re-analysis of the deposited data

How the results depend on the processing

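No paired analysis was possible because the labels give no replicate numbers. The average soft minus stiff differences kept their direction in every alternative run: -0.75 to -0.64 for Csf1, -0.74 to -0.65 for Vgf and 0.52 to 0.62 for Trh. None of 432 refitted AHA values of the 3 genes was called (lowest adjusted p = 0.411). With single libraries left out, the Csf1 difference ranged from -0.82 to -0.53 and the Trh difference from 0.43 to 0.67 at high AHA. Csf1 high minus low AHA then ranged from 0.057 to 0.35 on soft and from 0.016 to 0.22 on stiff gels. On soft gels, signs near 0 turned: Csf1 high minus mid AHA ranged from -0.069 to 0.23. Vgf high minus low ranged from -0.12 to 0.050, high minus mid from -0.21 to 0.032 and mid minus low from -0.071 to 0.19. Trh high minus low ranged from -0.078 to 0.17 and high minus mid from -0.16 to 0.089. On stiff gels, Csf1 mid minus low ranged from -0.064 to 0.14, Trh high minus low from -0.015 to 0.12 and Trh high minus mid from -0.060 to 0.011. Vgf high minus low AHA on soft gels was 0.094 with ERCC scaling and 0.053 with all 18 libraries, where high minus mid was 0.020.

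With ERCC scaling, 1 CSF1 signalling gene, 0 processing enzymes, 0 secretion genes, 3 transcription factors and, for high minus low AHA on soft gels, 0 list genes were called. DESeq2 called 1, 0 and 0 for enzymes, secretion genes and that AHA contrast. All 18 libraries gave 1 neuropeptide precursor, 2 secretion genes and 2 list genes for AHA. Without single libraries the counts were 2 to 5 for CSF1 signalling, 0 to 1 for neuropeptide precursors, 1 to 3 for enzymes, 0 to 2 for secretion genes, 0 to 1 for VGF receptors and 0 to 2 for AHA on soft gels. The list medians of CSF1 signalling, enzymes and the TRH axis were 0.039, 0.00054 and 0.13 with ERCC scaling, and the TRH axis median was -0.048 with the looser count filter. The cause of these changes was not tested. By Spearman's rho 0, 1 and 0 of the 5 most similar genes of Csf1, Vgf and Trh stayed, and with a prior count of 0.5 all 5 did.

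Among uncalled genes, the average difference turned with ERCC scaling for Pcsk2 (0.026), Pgpep1 (0.037) and C1qbp (0.037), and with all 18 libraries for Pcsk1 (0.0020), Pcsk2 (0.12) and Cpe (-0.0057). Without single libraries it ranged from -0.37 to 0.059 for Il34, -1.03 to 0.20 for Pcsk1, -0.59 to 0.16 for Pcsk2, -0.044 to 0.11 for Cpe, -0.0025 to 0.088 for Pam, -0.085 to 0.34 for Qpct and -0.068 to 0.0040 for Pgpep1. Depth limits the low genes most: Csf1r, Il34, Pcsk1 and Pcsk2 had at most 21 counts in a library.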
